A study of Mus musculus with 6 samples.

Results

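A2m, its relative Pzp and a set of serpins were followed in mouse embryonic stem (ES) cells, which are grown from the early embryo and can give rise to all tissues of the body. A2m and Pzp encode large proteins that trap proteases. Of the 9 genes listed, 8 were analysed: A2m, Pzp, the intracellular serpins Serpinb6a, Serpinb6b, Serpinb6c, Serpinb9 and Serpinb1a, and the collagen chaperone Serpinh1. Serpine2 was not analysed here. They were taken from 19938 genes tested, each through the brightest probe set that the platform annotation gives to that gene symbol alone, and each of the 8 had 1 such probe set. The genes were selected from measured values: A2m and Serpinb6c stood out in the comparison described here, and the others are their relatives. For these 8 genes all differences are therefore a description without a test.

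The study set 3 arrays of Satb1-/- cells, labelled as clones 1-1, 1-2 and 2-1, against 3 arrays of WT cells, labelled 1, 2 and 3 and given as controls. SATB1 binds DNA and shapes the folding of chromatin. Both groups carried a HygroTK selection marker in the Oct4 locus, were fed serum medium with LIF, and were kept for 3 days on irradiated feeder cells under hygromycin, which keeps cells that express the marker. Feeders were reduced by letting the cell suspension settle before total RNA was taken from its upper part, so that some feeder RNA may remain. The labels do not say whether the arrays of a group are separate cultures, nor what the first digit of a clone number means, so that the spread given here may in part be technical, and a difference between the groups cannot be told apart from a difference between cell clones.

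Protease inhibitors of these families destroy or disable the enzyme they meet. Proteins of the alpha-2-macroglobulin family offer a bait stretch, and once a protease cuts it they close around the enzyme as a cage, after which the complex is taken up through the receptor LRP1. Serpins hold out a loop that resembles a substrate, and the cut loop springs into the body of the serpin and crushes the protease that is bound to it. Clade B serpins stay inside the cell, where they guard against proteases that leak from granules or lysosomes. Mouse has many clade B genes where human has 1, as for the human genes SERPINB6 and SERPINB9. The liver is the main source of plasma alpha-macroglobulins in adult animals.

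Values are log2 expression on the deposited RMA scale, so that a difference of 1 is a doubling, and dim probe sets show less than the true change. A level, or its percentile among all genes tested, depends on the probes as well as on the RNA and does not rank genes by amount. Array medians lay between 4.69 and 4.85. Pearson's r over all 35557 probe sets was 0.989 to 0.991 within Satb1-/-, 0.976 to 0.986 within WT and 0.981 to 0.987 between the groups. The WT arrays lay far from each other: on the first principal component (34.5% of the variance) Satb1-/- scores were -12.5 to -3.25, while WT arrays 1, 2 and 3 scored 46.7, 15.9 and -37.0. On the second (25.7%) Satb1-/- scores were 16.7 to 27.4, and the WT arrays scored -15.6, -9.75 and -36.6. WT arrays 1 and 3 thus stood apart. Satb1 itself read 4.47 ± 0.10 in Satb1-/- and 5.14 ± 0.16 in WT (SD, n = 3 each). It was lower by limma (-0.67, SE 0.12, adjusted p = 0.022), and the labels do not say which stretch of the gene was deleted. The Satb1 call was lost when any single Satb1-/- array or WT array 1 was left out (differences from -0.72 to -0.62, limma adjusted p from 0.0623 to 0.128). Over all genes, limma with Benjamini-Hochberg adjustment at 0.05 gave 184 higher and 95 lower genes in Satb1-/-, or 116 and 30 with each array centred on its median. At an unadjusted p under 0.05 by limma, 5.92% of all genes were higher and 4.55% lower, and 48.5% had a difference above 0.

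A2m had the largest increase of all genes tested. It read 8.09, 9.11 and 8.64 in Satb1-/- arrays 1-1, 1-2 and 2-1, against 5.30, 6.30 and 5.56 in WT arrays 1, 2 and 3. The groups did not overlap, and the lowest Satb1-/- array lay 1.79 above the highest WT array. The mean was 8.61 ± 0.51 in Satb1-/- and 5.72 ± 0.52 in WT (SD, n = 3 each), a difference of 2.89 (SE 0.28) or 7.43-fold. Its level stood at percentile 94.5 of all genes in Satb1-/- and 61.1 in WT. The difference was 2.68 without WT array 1 and 2.81 without WT array 3. The name needs care, because RefSeq gives A2m as an older name of Pzp. The gene described here is Entrez gene 232345, with A2mp as its older name, and Pzp is Entrez gene 11287.

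Pzp encodes pregnancy zone protein, the major alpha-macroglobulin of mouse plasma. It read 4.31, 4.54 and 4.14 in Satb1-/- and 4.40, 4.25 and 4.09 in WT. The groups overlapped, and the difference was 0.09 (SE 0.13). Its level lay at percentile 36.2 of all genes in Satb1-/- and 33.2 in WT. The difference of Pzp was smaller than its SE, and it crossed 0 among the alternative settings (-0.02 to 0.18).

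Of 8 further family genes that were listed, 7 were measured: the murinoglobulin genes Mug1 and Mug2, which encode single-chain relatives made in rodents, A2ml1, the membrane-anchored Cd109, and the complement genes C4a, C4b and Hc, whose proteins share the fold. None passed the limma test in either direction, and at an unadjusted p under 0.05 the counts were also 0 higher and 0 lower. Their median difference was 0.09, against a median of -0.00 over all genes, with a range of -0.09 to 0.24. Mug2 had the highest of these values (0.24, SE 0.14, limma adjusted p = 0.662). Mug1 read 3.54, 3.32 and 2.84 in Satb1-/- and 3.33, 2.93 and 2.90 in WT. Cd109, whose product sits on the cell surface, read 5.01 ± 0.14 in Satb1-/- and 5.07 ± 0.14 in WT (SD, n = 3 each). Mug1 and Mug2 are near copies of each other, and 2 more probe sets are annotated to several Mug genes together, so their single values are uncertain.

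**Figure D1:**
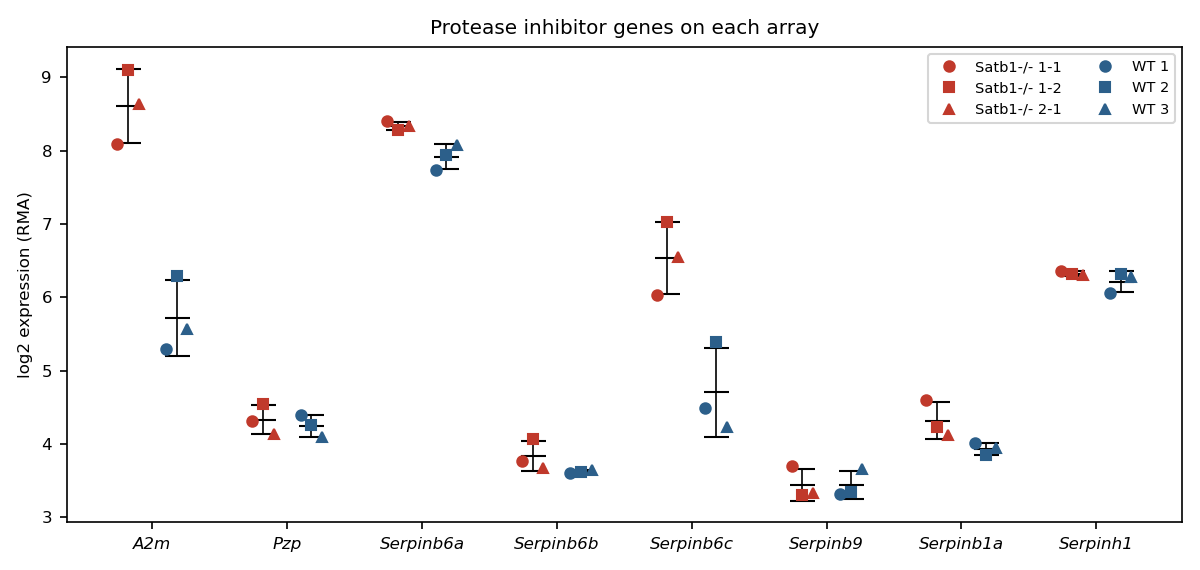
Log2 expression (y axis) of the 8 genes on each array, with Satb1-/- in red to the left of WT in blue; each point is 1 array, and black bars give the mean and SD of 3 arrays. A2m and Serpinb6c show wide gaps between the groups, Serpinb6a, Serpinb6b and Serpinb1a narrow ones, and Pzp, Serpinb9 and Serpinh1 overlap.

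A2m and Pzp both lie on chromosome 6, with 108 tested genes between them. Of these 108 genes, 97 had a difference above 0, with a median of 0.26. By limma, 36 were called higher and 0 lower (54 and 0 at an unadjusted p under 0.05). Over all genes, 48.5% had a difference above 0, 0.923% were called higher and 5.92% were higher at that unadjusted p. What share of the difference of A2m goes with this stretch of chromosome 6 was not tested. In the window of 15 tested genes on each side of A2m, from Il17ra to C3ar1, 25 of 30 differences were above 0, with a median of 0.45. In that window, 13 genes were called higher and 0 lower (16 and 0 at an unadjusted p under 0.05). A2m exceeded all of its 30 neighbours, of which Cecr2 had the highest value (1.42; named after its value was seen). The window also holds the pluripotency gene Nanog, with a difference of 1.09 (SE 0.11, limma adjusted p = 0.00109). Of the nearest 6 tested genes on one side of A2m and the nearest 3 on the other, none passed the limma test. All of these are dimmer than the median gene, so that distance from A2m and brightness cannot be fully told apart.

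Bright neighbours differed more than dim ones. The 16 neighbours of A2m that were brighter than the median gene had a median difference of 0.78, and 12 of them were called higher. The 14 dimmer ones had a median of 0.16, and 1 was called. The genes next to A2m are among the dim ones. Iqsec3, on one side, read 4.55, 4.37 and 4.50 in Satb1-/- and 4.60, 4.49 and 4.38 in WT, and Mug1 lies on the other side.

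Around Pzp, from Tigar to Clec2m, 27 of 30 neighbours had a difference above 0, with a median of 0.24. Of these, 8 were called higher and 0 lower by limma (13 and 0 at an unadjusted p under 0.05). The difference of Pzp was below that of 23 of the 30. Its 11 brighter neighbours had a median of 0.85 and its 19 dimmer ones 0.14, and Pzp is one of the dim genes. All 8 called genes lie on the side of Pzp that faces A2m. Every gene of the window on the other side of Pzp is one of the 19 dimmer ones, so that side and brightness cannot be fully told apart. Next to Pzp on the side that faces A2m, Gm10069 read 6.46, 6.92 and 6.73 in Satb1-/- and 5.63, 6.35 and 5.67 in WT (difference 0.82, SE 0.19, limma adjusted p = 0.0746). On the other side, A2ml1 differed by 0.18 (SE 0.10, limma adjusted p = 0.655).

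**Figure D2:**
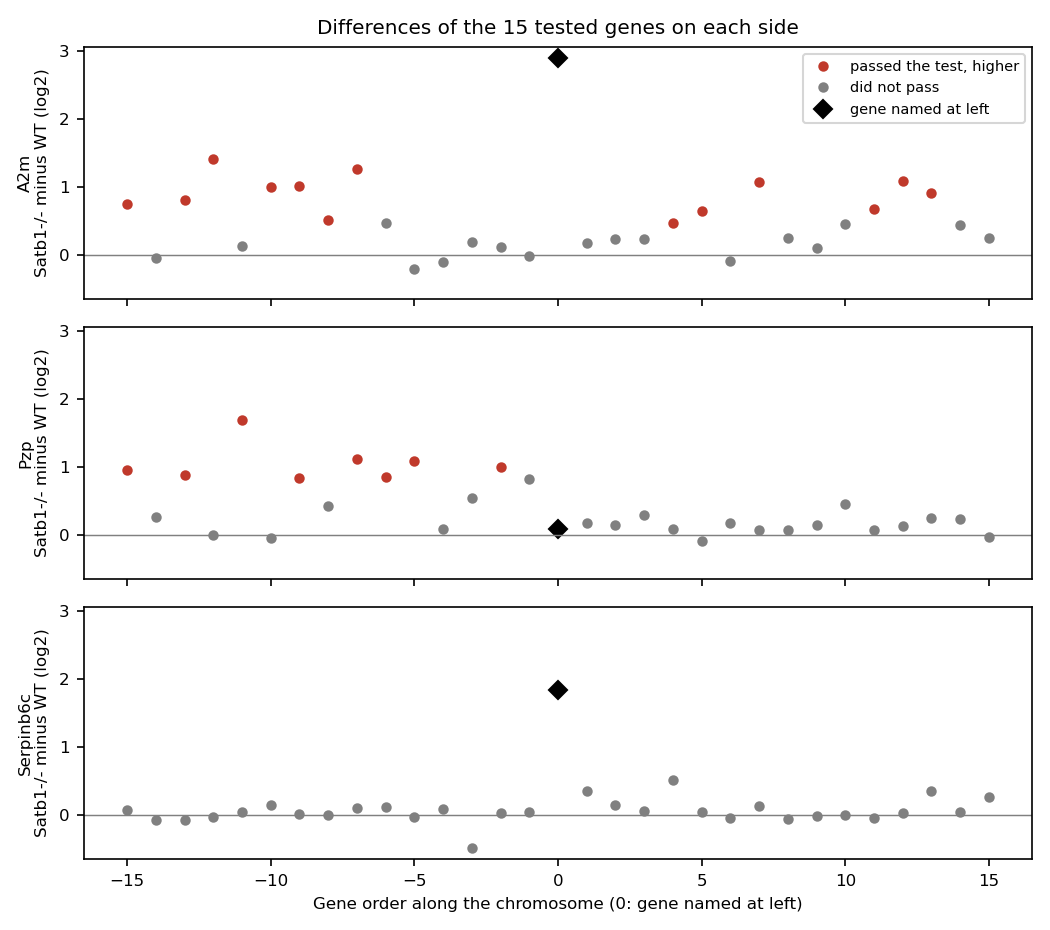
Satb1-/- minus WT difference (log2, y axis) of the 15 tested genes on each side of A2m, Pzp and Serpinb6c in gene order (x axis); red points were called higher by limma, and the black diamond is the gene named at the left. Many neighbours of A2m and some of Pzp are raised, and A2m lies above all of its own, while Serpinb6c is raised among neighbours near 0.

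The Serpinb genes measured on chromosome 13 form a row of 13, from Serpinb1a to Serpinb6a, and of these Serpinb6c and its neighbour Serpinb6a had the largest positive differences. Serpinb6c is one of the mouse copies that correspond to human SERPINB6. RefSeq gives promoter sequences (build GRCm38.p6, 250 bases before to 50 after a transcript start, written in the direction of transcription) for 6 of the 8 genes analysed. The promoter set used held none for A2m or Serpinb1a, so these were not searched. The 3 promoters below are shown because these genes are close copies with unlike values, and capitals mark CpG dinucleotides, the sites that DNA methylation uses in mammals.
Serpinb6c, chr13:33905142-33905441, minus strand: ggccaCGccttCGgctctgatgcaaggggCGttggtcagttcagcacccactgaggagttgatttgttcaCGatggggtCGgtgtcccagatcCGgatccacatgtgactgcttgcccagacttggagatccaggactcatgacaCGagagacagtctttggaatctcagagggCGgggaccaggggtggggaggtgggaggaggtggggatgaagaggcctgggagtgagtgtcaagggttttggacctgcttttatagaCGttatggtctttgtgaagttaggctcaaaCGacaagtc
Serpinb6a, first of 2 starts, chr13:34002745-34003044, minus strand: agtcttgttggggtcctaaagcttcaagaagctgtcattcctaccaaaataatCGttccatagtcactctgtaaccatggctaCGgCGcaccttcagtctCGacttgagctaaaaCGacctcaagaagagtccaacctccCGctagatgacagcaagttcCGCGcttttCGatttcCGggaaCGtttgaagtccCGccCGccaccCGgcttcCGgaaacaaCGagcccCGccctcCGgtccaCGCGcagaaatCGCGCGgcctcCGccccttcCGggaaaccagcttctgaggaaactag
Serpinb6b, chr13:32965011-32965310, plus strand: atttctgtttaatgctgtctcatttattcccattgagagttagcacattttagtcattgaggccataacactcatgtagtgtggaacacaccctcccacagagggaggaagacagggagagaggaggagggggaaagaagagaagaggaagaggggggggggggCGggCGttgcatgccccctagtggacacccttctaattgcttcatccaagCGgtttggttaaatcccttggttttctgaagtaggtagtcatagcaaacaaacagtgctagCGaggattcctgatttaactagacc

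The Serpinb6c promoter held 10 CpG sites with a GC content of 55.7%. The first Serpinb6a promoter held 25 CpG sites at the same GC content, and its second start held 5 sites at 50.0%. Serpinb6b had 4 CpG sites at 48.3%. Over all 32851 promoters in the table, the median was 7 CpG sites. Of the CpG counts, the first Serpinb6a promoter lay at percentile 81.6 and the second at 38.0, with Serpinb6c at 56.5 and Serpinb6b at 31.4. The palindrome TTCNNNGAA is the core of sites bound by STAT factors that act downstream of LIF. It occurred in 8.3% of all promoters and in 1 of the 7 held for the 6 genes, which do not include A2m. This was the first Serpinb6a promoter, where it started at positions -77 and 21 (the transcript start is 1). The palindrome GAANNTTC, a core of the heat shock element, occurred in 7.86% of all promoters and in 0 of the 7. Other arrangements of the heat shock element were not searched. These matches are letters in a window and not shown to be sites.

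Serpinb6c read 6.03, 7.02 and 6.56 in Satb1-/- arrays 1-1, 1-2 and 2-1, against 4.49, 5.39 and 4.23 in WT arrays 1, 2 and 3. The lowest Satb1-/- array lay 0.64 above the highest WT array. The mean was 6.54 ± 0.50 in Satb1-/- and 4.70 ± 0.61 in WT (SD, n = 3 each), a difference of 1.83 (SE 0.30) or 3.56-fold. This was the fourth largest increase among all genes, at level percentile 72.6 in Satb1-/- and 43.2 in WT. The difference was 1.73 without WT array 1 and 1.60 without WT array 3. No neighbour reached its value: the 30 tested genes around it (other than Serpinb6a and the rest of the 8) had a median difference of 0.04, with a highest value of 0.51 in Tubb2b, which was named after its value was seen. Of these 30, 0 were called by limma in either direction, and 3 were higher and 1 lower at an unadjusted p under 0.05.

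Serpinb6a encodes the broadly expressed form, an inhibitor of cathepsin G and related proteases. It read 8.40, 8.29 and 8.33 in Satb1-/- and 7.74, 7.95 and 8.08 in WT. The groups did not overlap but were only 0.21 apart, and the difference was 0.42 (SE 0.12), or 1.34-fold. Its level stood at percentile 92.9 in Satb1-/- and 89.9 in WT. The quinone reductase gene Nqo2, the next tested gene beyond it, read 6.37, 6.61 and 6.69 in Satb1-/- and 6.06, 6.14 and 6.42 in WT, with overlap (difference 0.35, SE 0.13, limma adjusted p = 0.347).

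Serpinb6b, another mouse copy, read 3.76, 4.07 and 3.67 in Satb1-/- and 3.60, 3.62 and 3.65 in WT. The groups were 0.02 apart, and the difference of 0.21 (SE 0.12) was 0.097 without Satb1-/- array 1-2. Level percentiles were 24.6 in Satb1-/- and 19.0 in WT. Among the remaining copies, Serpinb6d differed by 0.03 and Serpinb6e by 0.04 (SE 0.11 and 0.12), so that of 5 measured Serpinb6 genes only Serpinb6c differed by more than 1.

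Serpinb1a encodes the mouse form of leukocyte elastase inhibitor, which blocks neutrophil elastase and cathepsin G. It read 4.60, 4.23 and 4.12 in Satb1-/- and 4.01, 3.84 and 3.94 in WT. The groups were 0.11 apart, and the difference was 0.39 (SE 0.14), with Satb1-/- array 1-1 highest. Serpinb1b (0.12, SE 0.13) and Serpinb1c (0.00, SE 0.11) had no such gap.

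Serpinb9 encodes the inhibitor of granzyme B that protects immune cells from their own granules. It read 3.70, 3.30 and 3.33 in Satb1-/- and 3.31, 3.34 and 3.66 in WT. The groups overlapped fully, the difference was 0.00 (SE 0.14), and the level lay at percentile 15.5 in Satb1-/- and 15.0 in WT. Its relative Serpinb9b read 6.40, 5.84 and 6.27 in Satb1-/- and 5.78, 5.76 and 6.65 in WT, also with overlap (difference 0.11, SE 0.23). WT array 3 lay above all Satb1-/- arrays and the other WT arrays below them. Serpinb9e had the largest decrease of the row, at 3.60 ± 0.13 in Satb1-/- and 4.08 ± 0.37 in WT (SD, n = 3 each). That difference of -0.48 was not called (SE 0.17, limma adjusted p = 0.296). A further 3 probe sets are annotated to several Serpinb9 genes together, so the values of single close copies are uncertain.

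**Figure D3:**
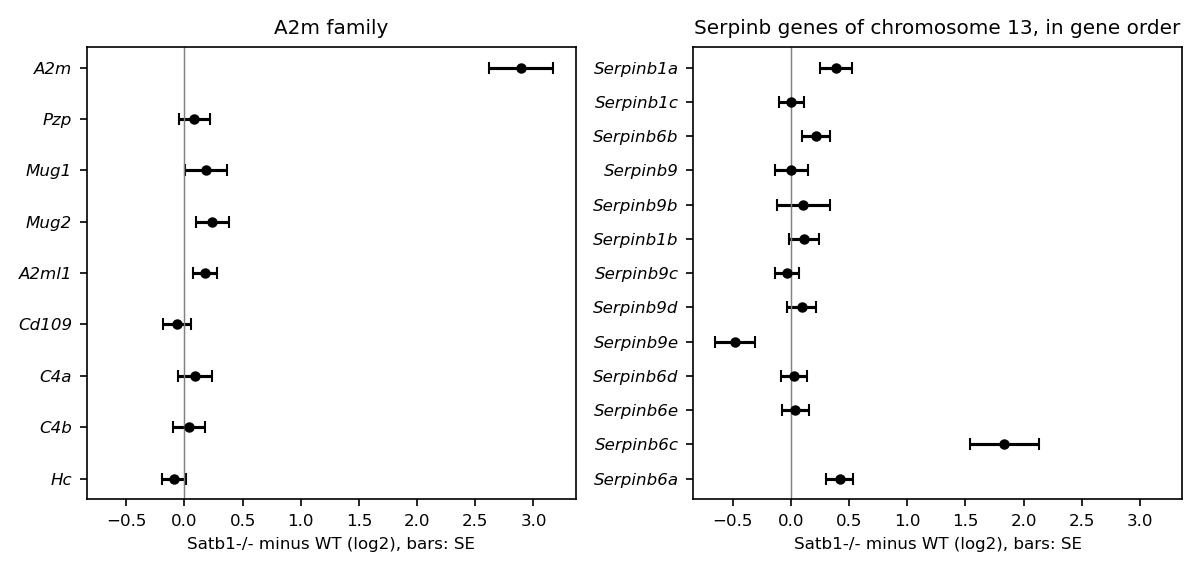
Satb1-/- minus WT difference (log2, x axis) with its SE for A2m, Pzp and family relatives (left) and for the 13 Serpinb genes measured on chromosome 13 in gene order (right). A2m at 2.89 and Serpinb6c at 1.83 lie far to the right, while the other genes lie between -0.48 and 0.42.

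Serpinh1, also called HSP47, is a serpin that inhibits no protease; it sits in the endoplasmic reticulum and holds folded collagen until it is exported. It read 6.36, 6.31 and 6.30 in Satb1-/- and 6.06, 6.31 and 6.27 in WT. The groups overlapped, with only WT array 1 clearly lower, and the difference was 0.11 (SE 0.11). Its 30 neighbours on chromosome 7 had a median difference of -0.04, and the adjacent tested genes Map6 and Gdpd5 differed by -0.05 and -0.04. Of its 21 listed partners in collagen folding, among them collagen genes and prolyl and lysyl hydroxylases, 18 were measured. Of these, 0 were called by limma in either direction (2 higher and 1 lower at an unadjusted p under 0.05), with a median difference of 0.10. P4hb, a disulfide isomerase and hydroxylase subunit, read 10.08 in both groups, and the prolyl isomerase gene Ppib 8.93 in Satb1-/- and 8.75 in WT. Without WT array 2 alone, Col1a2 (0.63, limma adjusted p = 0.0483) and P4ha1 (0.69, limma adjusted p = 0.0432) were called higher. Serpinh1 is also a heat shock gene. Of 9 measured heat shock genes, 0 were called in either direction (0 higher and 1 lower at an unadjusted p under 0.05). The chaperone genes Hsp90aa1 and Hspa8 differed by -0.04 and -0.00, and Hspb1 (0.74, limma adjusted p = 0.00578) was called only when WT array 3 was left out.

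By the test over all genes, 2 of the 8 genes analysed were called higher, A2m and Serpinb6c, and 0 lower, and no difference was below 0. Among all genes tested, 0.923% were called higher and 0.476% lower, and 48.5% had a difference above 0. Since the same comparison chose the genes, nothing is read from this count. In 5 of the 8 the groups did not overlap, against 15.1% of all genes. The count of the 8 called higher was 1 in the fits without Satb1-/- array 1-2, without array 2-1 or without WT array 1, where Serpinb6c missed the threshold. These counts too describe the same arrays and support nothing about the genes.

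A2m and Serpinb6c had a similar order of arrays within each group, a pattern seen only after their values were known. Relative to the mean of their own group, Satb1-/- arrays 1-1, 1-2 and 2-1 lay at -0.52, 0.50 and 0.02 for A2m. The same arrays lay at -0.51, 0.49 and 0.02 for Serpinb6c. WT arrays 1, 2 and 3 lay at -0.42, 0.58 and -0.16 for A2m and at -0.21, 0.68 and -0.47 for Serpinb6c. Array 1-2 was thus the highest of its group for both genes, and so was WT array 2, while the order of WT arrays 1 and 3 differed. No other of the 8 genes had both of these arrays as the highest of their groups. Outside the 8, genes such as Gm10069, Htra1 and Adipor2 had it too, so that this order is not particular to A2m and Serpinb6c. With 3 arrays in a group this order is a description only.

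The genes most like A2m were sought by the root mean square distance of their values, each set against its WT mean, over the 6 arrays. The 5 closest were Apoa2 (0.64), Serpinb6c (0.77), Prmt8 (0.93), 2210409E12Rik (0.94) and Lrp6 (0.98). For Serpinb6c they were Adipor2 (0.36), Lrp6 (0.40), Cyct (0.40), Prmt8 (0.45) and Ptpn6 (0.47). This distance mainly finds genes with a difference of like size. Of the 5 closest to Serpinb6c, which lies on chromosome 13, 4 lie on chromosome 6, and Cyct lies on chromosome 2. As given above, 36 of the 108 tested genes between A2m and Pzp on chromosome 6 were called higher. No link of Serpinb6c to that chromosome is read from this. Apoa2, an apolipoprotein gene, came near to A2m by size, with 7.63, 7.11 and 7.40 in Satb1-/- and 5.02, 4.87 and 4.92 in WT, but array 1-2 was its lowest Satb1-/- array.

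The 9 related lists together held 128 distinct measured genes: the relatives of A2m and of the Serpinb genes given above, other serpins and inhibitors, proteases, receptors, and genes of collagen folding and heat shock. Of these 128, 1 was called higher and 0 lower by limma (7 and 4 at an unadjusted p under 0.05), with a median difference of 0.01. The called share was 0.781%, against 0.923% of all genes called higher. At the unadjusted p, 5.92% of all genes were higher and 4.55% lower. The called gene was Htra1, a secreted serine protease of the extracellular matrix. It read 6.88, 7.26 and 7.12 in Satb1-/- and 5.94, 6.35 and 6.24 in WT, a difference of 0.91 (SE 0.14, limma adjusted p = 0.0107) without overlap. The call was lost without Satb1-/- array 1-2 (0.82, limma adjusted p = 0.0788) or 2-1 (0.90, limma adjusted p = 0.0786). Of the other 15 serine proteases measured, none was called, and the membrane protease gene St14 read 7.79 in Satb1-/- and 7.55 in WT (limma adjusted p = 0.736).

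Among 11 measured other clade B serpins and among 23 serpins of the other clades, 0 were called in either direction by limma. At an unadjusted p under 0.05 the counts were 0 and 0 in the first list, and 1 higher and 0 lower in the second. The medians were 0.04 and -0.06. Serpinf1, which encodes a secreted factor that restrains blood vessel growth, read 7.09, 7.03 and 7.02 in Satb1-/- and 6.65, 6.91 and 6.05 in WT (difference 0.50, SE 0.19, limma adjusted p = 0.328). Serping1, the inhibitor of the first complement component, read 6.51, 6.76 and 6.46 in Satb1-/- and 5.87, 6.58 and 6.21 in WT (difference 0.36, SE 0.17, limma adjusted p = 0.513). Serpinb2 varied widely between arrays, at 4.95 ± 0.52 in Satb1-/- and 5.32 ± 0.85 in WT (SD, n = 3 each).

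The receptors and cofactors that act on these inhibitors held 0 calls among 9 genes by limma (1 higher and 1 lower at an unadjusted p under 0.05), with a median of -0.09. The chaperone genes Hspa5 and Calr of that list differed by 0.03 and -0.19. Lrp1, the receptor that clears complexes of A2m, read 7.76, 7.75 and 7.69 in Satb1-/- and 7.24, 7.51 and 7.13 in WT, a difference of 0.44 (SE 0.12, limma adjusted p = 0.128) without overlap that was not called (named for its role after its values were seen). Of 27 other protease inhibitors, such as cystatins and TIMPs, 0 were called in either direction (2 higher and 0 lower at an unadjusted p under 0.05), with a median of 0.03. Cst3, which encodes cystatin C, differed by 0.22 (SE 0.15). Tfpi, the tissue factor pathway inhibitor gene, had the largest difference of that list, 0.63 (SE 0.19, limma adjusted p = 0.197), and was named after its value was seen. Without WT array 3, Timp2 (0.57, limma adjusted p = 0.0487) was called higher.

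**Figure D4:**
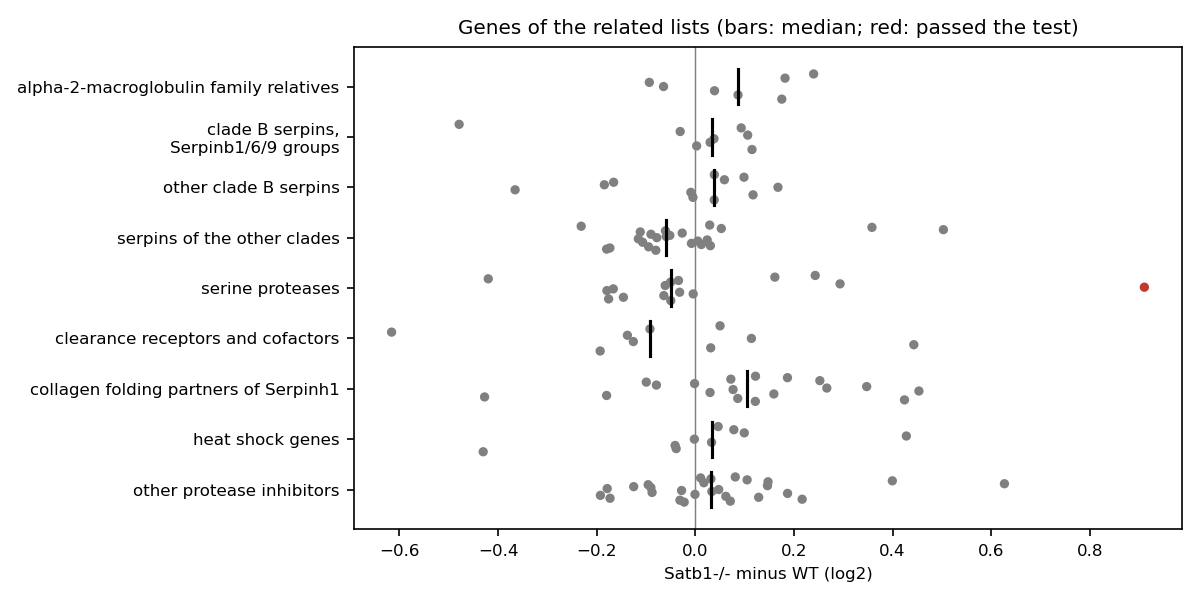
Satb1-/- minus WT difference (log2, x axis) of every measured gene in the 9 related lists; each point is 1 gene, the black bar is the list's median and red marks a gene that limma called. The medians lie between -0.09 and 0.10, and Htra1 at 0.91 is the 1 red point.

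Markers of other cell types were read beside these values. Pou5f1 (Oct4) was bright in both groups, at 9.83 ± 0.07 in Satb1-/- and 10.22 ± 0.28 in WT, and Nanog read 10.95 ± 0.04 in Satb1-/- and 9.87 ± 0.15 in WT (SD, n = 3 each). Of all 12 ES cell markers measured, 3 were called higher and 0 lower by limma (4 higher and 2 lower at an unadjusted p under 0.05), with a median of 0.14 and a range of -0.39 to 1.09. The called genes were Nanog, Klf4 (0.97, limma adjusted p = 0.0483) and Esrrb (0.56, limma adjusted p = 0.0435). Klf4 was called only in the fit without WT array 3 among those that left out an array (adjusted p by limma from 0.103 to 0.225 in the others). Esrrb was called without WT array 2 or 3 (adjusted p by limma from 0.106 to 0.209 in the others). Of the 15 feeder fibroblast markers measured, 0 were called in either direction by limma (4 higher and 0 lower at an unadjusted p under 0.05). A difference above 0 was seen in 14 of them (median 0.19). Over all genes, 5.92% were higher and 4.55% lower at that unadjusted p, and 48.5% had a difference above 0. The mean level of the feeder markers was 6.85, 6.63 and 6.82 in Satb1-/- and 6.48, 6.67 and 6.32 in WT, so that the groups overlapped. Satb1-/- array 1-2, the highest for A2m and Serpinb6c, had the lowest feeder level of its group, while WT array 2 had the highest of its group. Col1a1, a fibroblast collagen gene, read 8.07 ± 0.10 in Satb1-/- and 7.95 ± 0.20 in WT (SD, n = 3 each). The part of feeder RNA in the differences of the inhibitor genes was not tested.

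Liver markers stand for the main source of plasma alpha-macroglobulins. Over 9 genes their mean level was between 4.01 and 4.08 in Satb1-/- and between 4.01 and 4.25 in WT, with 0 calls in either direction by limma and 0 at an unadjusted p under 0.05. The 8 leukocyte markers measured had a mean level between 4.09 and 4.27 in Satb1-/- and between 4.11 and 4.23 in WT, with 0 calls (1 higher and 0 lower at an unadjusted p under 0.05). The 15 markers of extraembryonic endoderm had 0 calls (3 higher and 1 lower at an unadjusted p under 0.05) and a median of -0.02. In the trophectoderm list 2 of 12 measured genes were called lower, the keratin genes Krt8 (-2.72, SE 0.32, limma adjusted p = 0.00209) and Krt18 (-2.48, limma adjusted p = 0.00514), and 0 higher. At an unadjusted p under 0.05 the list went both ways, with 3 higher and 5 lower. Eomes (0.55), Tead4 (0.43, in the window around Pzp on chromosome 6) and Tfap2c (0.33) were the 3 higher ones. The 5 lower ones were Krt8, Krt18, Krt7 (-1.57), Plac1 (-1.08) and Ascl2 (-0.48). Apart from Krt8 and Krt18, these genes were named after their values were seen. The mean level of the list was 5.28 to 5.42 in Satb1-/- and 5.71 to 6.44 in WT. The part of any of these cell types in the differences of the inhibitor genes was not tested. Log2 array values have no zero, so that no marker can be called absent, and fewer cells of a type cannot be told apart from less RNA per cell.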

How the data were processed

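Total RNA of 6 samples was labelled with biotin and hybridised to 1-colour arrays. The authors deposited log2 values, 1 for each probe set, and RMA is the tool named, per the submitters' processing notes; no version, setting or genome build was stated there. Of 35557 probe sets, 21789 had exactly 1 gene symbol in the platform annotation, 1621 several and 12147 none. Each of 19938 genes was read from its brightest probe set by the mean of 6 arrays. Satb1-/- was compared with WT using limma 3.58.1 in R 4.3.3 (empirical Bayes, genotype as the only term), tested beforehand on simulated data. There it found 23.9% of planted log2 changes of 0.5, 75.1% of those of 1 and 97.5% of those of 2. A gene that was not called may thus still differ. P-values were adjusted by Benjamini-Hochberg over all genes, a gene was called at 0.05, and an adjusted p is from the fit to all 6 arrays unless the text says that an array was left out of the fit. Differences are Satb1-/- minus WT, with the moderated SE. Gene order and promoters came from RefSeq (GRCm38.p6). The members and gene lists were chosen with earlier results of these data known. Names were taken by a rule from the 8 genes, up to 4 called genes and the 2 with the highest mean in each list, nearest neighbours, the 5 genes most like A2m and Serpinb6c, and fixed markers. Not all genes this rule allows are named. Other names are said to be chosen after their values were seen or are family members given by role. P-values measure only the spread between these arrays, whose number limits the precision. Alternatives covered probe set choice, scaling, a floor, array weights, the 2 clones numbered 1 as 1 sample, the threshold and leaving out each array.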

Additional observations from a re-analysis of the deposited data

How the results depend on the processing

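No alternative reversed a called value, but calls were lost, as given below. None moved one of the 8 inhibitor genes by more than the spread of its replicates (108 values). A2m lay between 2.59 and 3.18 and Serpinb6c between 1.48 and 2.17. The number of these genes called higher (2) was 1 with all probe sets tested, 1 at an adjusted p under 0.01 and 0 with a floor at the 25th percentile, and 1 to 2 when 1 array was left out; 0 were called lower in each of these. Genes of the related lists called higher (1) were 0 with all probe sets tested, with the floor and at 0.01, and 0 to 3 when 1 array was left out; 0 were called lower. Over all genes, the higher and lower counts (184 and 95) were 54 and 10 with all probe sets tested, 116 and 30 with arrays centred, 236 and 148 with quantile normalization, 18 and 4 with the floor, 373 and 235 with array weights, 90 and 27 with Satb1-/- arrays 1-1 and 1-2 averaged into 1 sample, 86 and 23 at 0.01, and 74 to 356 and 19 to 124 when 1 array was left out. The median difference around A2m (0.45) was 0.78 for genes above the median level, 0.37 with the floor, and 0.37 to 0.48 when 1 array was left out. Around Pzp (0.24) it was 0.85, 0.058 and 0.21 to 0.27 in the same order, and around Serpinh1 (-0.04) it was -0.060 to 0.0062 when 1 array was left out. Among named genes outside the 8, 45 values were no longer called under an alternative and 2 became called. Krt8, Krt18, Klf4 and Esrrb were not called with all probe sets tested or with the floor. Nanog was not called with the floor, and Klf4 and Esrrb were not called with arrays centred. The causes of these shifts and lost calls were not tested. No paired analysis was possible because the clone numbers of the Satb1-/- arrays do not match the array numbers of WT.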
